A study of Homo sapiens with 6 samples.

Results

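The γ-, δ- and ε-tubulin genes and the genes of the γ-tubulin ring complex were examined in Rh30 cells, an established line from a fusion-positive rhabdomyosarcoma (FP-RMS). The 10 genes were chosen by name: TUBG1, TUBG2, TUBD1, TUBE1, TUBGCP2 to TUBGCP6 and NEDD1. All 10 were found among the 35268 named genes of the deposited table. Rh30 cells were treated for 24 hours with 1 µM YK-4-279, a small molecule that the study describes as acting on ETS transcription factors, or with the vehicle DMSO. Each group held 3 mRNA libraries (n = 3 per group), and the comparison asked which transcripts differed with the drug. Rh30 carries PAX3-FOXO1, the fusion protein studied, so that both groups share it, and a single cell line is a limited model of the tumor. The labels do not say whether the replicates came from separate cultures, so p-values measure the spread between these samples, which may be technical.

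γ-Tubulin is the tubulin that starts new microtubules. It sits in a ring with the γ-tubulin complex proteins (GCPs), and this ring is the template on which α/β-tubulin dimers assemble. TUBGCP2 and TUBGCP3 encode the subunits of the small complex that makes up most of the ring, TUBGCP4, TUBGCP5 and TUBGCP6 encode further subunits of the full ring, and NEDD1 encodes the adaptor that brings the ring to centrosomes and spindles. δ- and ε-Tubulin, encoded by TUBD1 and TUBE1, are not part of the ring and serve centrioles, in which they are needed for the outer microtubules of the triplets.

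The 6 libraries held between 16724650 and 24677433 reads on named genes, of which between 8745 and 12935 lay on the 10 genes. Values are normalized counts, that is, reads divided by a size factor of each library. DMSO replicate 1, which had the fewest reads (16724650), stood apart. Its mean correlation to the other libraries was 0.989, where theirs were 0.992 or more. Mitochondrial genes took 6.05% of its reads and 4.74% to 5.03% of theirs. It was the highest of the 6 libraries for 6 of the 10 genes and for 33.7% of all genes tested. Values without it are given beside the 10 genes and beside some of the other genes named. The share of all genes that limma called also moved with the library left out. It was 13.1% without DMSO replicate 1 (8.46% lower), 4.85% without DMSO replicate 2 (2.96% lower) and 1.74% without DMSO replicate 3 (1.02% lower). Without drug-treated replicates 1, 2 and 3 it was 0.136%, 0.165% and 0.33%, and the shares called lower were 0.0287%, 0.0503% and 0.129%. MYOD1, a myogenic marker with the highest mean of the 8 lineage markers examined, had 34516 to 39146 normalized counts, and the 8 together had 93535 to 107937 with DMSO and 99161 to 104139 with the drug. The 10 markers of blood, endothelial, epithelial, liver and glial cells together had 86.0 to 103 normalized counts with DMSO and 102 to 139 with the drug. Of these, EPCAM had the highest mean, and the part of such transcripts in the results was not tested. Of these 18 markers 11 were tested, and 0 passed in limma, where 3.41% of all genes did, with 3 at an unadjusted p under 0.05, where 18.7% of all genes were. Those 3, named after their values were seen, were MYOG, DES and FOXO1. MYOG and DES were at 0.23 and 0.14 on the log2 scale, and both at 0.08 without DMSO replicate 1. FOXO1 was at -0.25, and at -0.14 without that library. Rh30 carries the PAX3-FOXO1 fusion, so counts of PAX3 and FOXO1 can hold reads of the fusion transcript, which were not told apart. Without DMSO replicate 1, 3 lineage markers were called lower (FOXO1, FGFR4 and CDH15), and without DMSO replicate 2, 1 was.

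TUBG1 and TUBG2, the γ-tubulin genes, are neighbors on chromosome 17 of hg38. TUBG1 lies from 42609641 to 42615238 and TUBG2 from 42659284 to 42667006, both on the plus strand, with 44045 bases between them. Their coding sequences, of 1356 bases each in the canonical GENCODE transcripts, were identical at 1284 positions, or 94.7%. The sequences are shown because they set how well reads can be told apart. The stretch of 120 coding bases with the most differences, from base 331 to base 450 of each coding sequence counted from the start codon, held 18 of them, which are in capitals.

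TUBG1: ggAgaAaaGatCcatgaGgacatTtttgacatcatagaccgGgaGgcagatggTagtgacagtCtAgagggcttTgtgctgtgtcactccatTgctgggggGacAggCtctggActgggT
TUBG2: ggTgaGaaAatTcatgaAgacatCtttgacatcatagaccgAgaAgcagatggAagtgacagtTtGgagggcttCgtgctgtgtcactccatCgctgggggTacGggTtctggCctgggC

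The longest run shared without a difference was 215 bases, from coding base 118 to base 332, and is longer than the 150 bases of 1 sequencing read.

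TUBG1 and TUBG2, shared run: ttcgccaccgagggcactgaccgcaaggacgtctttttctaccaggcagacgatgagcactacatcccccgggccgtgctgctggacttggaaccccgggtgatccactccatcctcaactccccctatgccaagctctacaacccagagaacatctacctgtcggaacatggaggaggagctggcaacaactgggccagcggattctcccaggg

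Of the 150-base windows of the TUBG1 transcript, 6.24% were also found in a TUBG2 transcript, and 5.57% of the windows of the TUBG2 transcript were found in TUBG1. Of 50-base windows, which are shorter than an untrimmed read, 29.1% and 26.2% were shared. Reads from such windows cannot be assigned to a gene on their own, though the mate of a read pair may differ. The values of both genes are uncertain to that extent, more so for TUBG2, which had far fewer reads.

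TUBG1 had the lowest adjusted p-value of the 10 genes. DMSO replicates 1 to 3 held 1880, 1782 and 1929 normalized counts of TUBG1, and drug-treated replicates 1 to 3 held 1629, 1630 and 1461. Every drug-treated library lay below every DMSO library. The means were 1863 ± 74.9 and 1573 ± 97.4 (SD, n = 3 each), and the log2 fold change was -0.25 on the log2(normalized count + 1) scale (standard error 0.07, 95% confidence interval -0.39 to -0.10). TUBG1 did not pass an adjusted p-value of 0.05 over the 13930 genes tested (limma adjusted p = 0.0646). Unlike several genes below, its difference hardly moved without DMSO replicate 1, at -0.24 on the log2 scale, and it then passed the threshold (limma adjusted p = 7.4e-04). It also passed without DMSO replicate 2, at -0.28 (limma adjusted p = 0.0456). Over all 17 alternatives its log2 fold change ranged from -0.28 to -0.19 and its adjusted p-value from 7.4e-04 to 0.309.

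TUBG2 encodes the less widely expressed γ-tubulin. It had 258, 210 and 230 normalized counts in DMSO replicates 1 to 3, against 293, 204 and 277 in drug-treated replicates 1 to 3. The groups overlapped, with the lowest and the highest of the 6 values both in drug-treated libraries. The log2 fold change was 0.14 with a standard error of 0.14 (95% confidence interval from -0.16 to 0.43, limma adjusted p = 0.635), so that 0 lay inside the interval. TUBG2 was the only gene of the 10 that was above 0 in all 17 alternatives, at 0.04 to 0.30. It was at 0.21 without DMSO replicate 1 (limma adjusted p = 0.251), 0.06 without DMSO replicate 2, 0.04 without drug-treated replicate 1, 0.30 without drug-treated replicate 2 and 0.08 without drug-treated replicate 3.

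A ratio within a library does not depend on how libraries are scaled. TUBG1 made up 87.9%, 89.5% and 89.3% of the normalized counts of both γ-tubulin genes in DMSO replicates 1 to 3, against 84.8%, 88.9% and 84.1% in drug-treated replicates 1 to 3. Drug-treated replicate 2 lay within the DMSO range, and the other drug-treated libraries lay below it. The mean share was 88.9 ± 0.86% with DMSO and 85.9 ± 2.60% with the drug, a difference of -3.01 percentage points (exact permutation test over the libraries, two-sided, p = 0.20, and 0.40 adjusted over 6 ratios). The smallest p that 3 libraries against 3 allow is 0.10, so that no such ratio could pass 0.05.

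**Figure D1:**
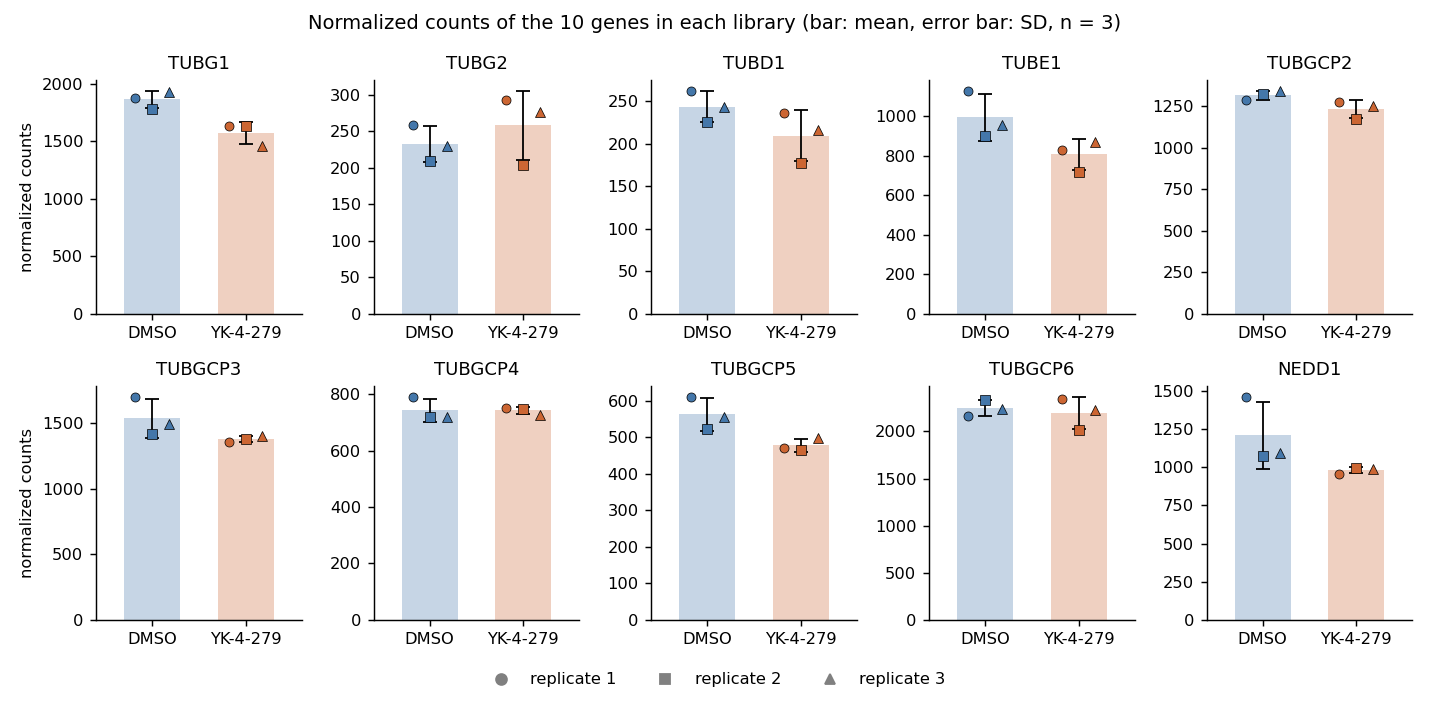
Normalized counts of each of the 10 genes in the 3 DMSO and 3 YK-4-279 libraries, with 1 panel per gene and a vertical axis from 0. Bars show means, error bars the SD (n = 3) and symbols the replicates. For TUBG1 the lowest DMSO library (1782) lies above the highest drug-treated library (1630), whereas for TUBG2 the groups overlap, and for NEDD1 DMSO replicate 1 (1460) stands far above the rest.

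NEDD1 (chromosome 12, 96907224 to 96953780, plus strand) showed a different picture. It had 1460, 1072 and 1094 normalized counts in DMSO replicates 1 to 3, against 958, 996 and 985 in drug-treated replicates 1 to 3. All drug-treated libraries lay below all DMSO libraries, but DMSO replicate 1 accounted for much of the distance between the means, 1209 ± 218 and 980 ± 19.8 (SD, n = 3 each). The log2 fold change was -0.29 with a standard error of 0.10 (95% confidence interval from -0.51 to -0.07, limma adjusted p = 0.142). Without DMSO replicate 1 it was -0.14 (limma adjusted p = 0.0812). Without DMSO replicate 2 it was -0.37 and passed the threshold (limma adjusted p = 0.0466).

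The GCPs of the small complex differed little between the groups. TUBGCP3 (chromosome 13, 112485011 to 112588205, minus strand) had 1698, 1416 and 1491 normalized counts in DMSO replicates 1 to 3, against 1356, 1378 and 1405 in drug-treated replicates 1 to 3. The groups did not overlap, by a margin of 1405 against 1416, and the log2 fold change was -0.15, with a 95% confidence interval of -0.31 to 0.01 (limma adjusted p = 0.294). Without DMSO replicate 1 it was -0.08 (limma adjusted p = 0.374). TUBGCP2 (chromosome 10, 133278635 to 133318823, minus strand) had 1285, 1320 and 1338 normalized counts with DMSO against 1277, 1171 and 1252 with the drug. The margin between the groups was again narrow, and the log2 fold change was -0.09, with a 95% confidence interval of -0.23 to 0.05 (limma adjusted p = 0.473). It was at -0.11 without DMSO replicate 1 and at -0.06 without drug-treated replicate 2, and over the 17 alternatives it ranged from -0.13 with the trend on GC content and length removed to -0.04 with quantile normalization.

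Of the GCPs that complete the ring, TUBGCP5 had the most negative difference. TUBGCP5 (chromosome 15, 22983192 to 23039572, minus strand) had 610, 522 and 556 normalized counts in DMSO replicates 1 to 3, against 470, 466 and 497 in drug-treated replicates 1 to 3, with no overlap. Its log2 fold change was -0.23 with a standard error of 0.08 (95% confidence interval from -0.42 to -0.05, limma adjusted p = 0.157), and -0.17 without DMSO replicate 1 (limma adjusted p = 0.126). TUBGCP4 (chromosome 15, 43369221 to 43409771, plus strand) had 791, 718 and 721 normalized counts with DMSO against 753, 748 and 728 with the drug. Its means were almost equal, with a log2 fold change of 0.00046 (from -0.16 to 0.16 at 95% confidence, limma adjusted p = 0.998), and 0.05 without DMSO replicate 1. Of its annotated exon bases, 33.4% overlap exons of TP53BP1 on the other strand, and since the strand setting of the counting is not given in the sources used here, its counts are uncertain. For TUBG1, TUBGCP2 and TUBGCP6 the largest such overlaps cover 4.03%, 5.69% and 5.01% of exon bases. TUBGCP6 (chromosome 22, 50217689 to 50245023, minus strand) had 2165, 2331 and 2243 normalized counts with DMSO against 2350, 2012 and 2224 with the drug. These overlapped, with a log2 fold change of -0.04 (95% confidence interval -0.18 to 0.11, limma adjusted p = 0.823), and -0.06 without DMSO replicate 1.

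The tubulins of the centriole were both lower on average. TUBE1 (chromosome 6, 112070663 to 112087529, minus strand) had 1128, 898 and 955 normalized counts in DMSO replicates 1 to 3, against 831, 719 and 871 in drug-treated replicates 1 to 3. The groups did not overlap. The means were 994 ± 120 and 807 ± 78.8 (SD, n = 3 each), and the log2 fold change of -0.30 was the most negative of the 10 genes (standard error 0.10, 95% confidence interval -0.50 to -0.09, limma adjusted p = 0.110). TUBE1 passed the threshold without DMSO replicate 1, at -0.20 (limma adjusted p = 0.0295), and without DMSO replicate 2, at -0.37 (limma adjusted p = 0.0430). Over the 17 alternatives TUBE1 ranged from -0.37 to -0.18, and without DMSO replicate 1 TUBG1 was more negative than TUBE1. TUBD1 (chromosome 17, 59859479 to 59892945, minus strand) had 262, 226 and 243 normalized counts with DMSO against 236, 177 and 216 with the drug. Drug-treated replicate 1 lay within the DMSO range, and the log2 fold change was -0.22, with a 95% confidence interval of -0.49 to 0.04 (limma adjusted p = 0.349). Without DMSO replicate 1 it was -0.17 (limma adjusted p = 0.383), and without drug-treated replicate 2, the lowest library, it was -0.11 (limma adjusted p = 0.737). Over the 17 alternatives it ranged from -0.31 to -0.11.

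Across the 10 genes, limma called none at an adjusted p-value under 0.05, against the 3.41% of all genes tested. At an unadjusted p under 0.05 there were 4, namely TUBE1, TUBG1, NEDD1 and TUBGCP5, all lower with the drug, against 18.7% of all genes. On reads recovered from the table, edgeR's quasi-likelihood test called 0, against 3.34% of all genes, and DESeq2 called 1, against 4.56%. That gene was TUBG1, just under the threshold, at a log2 fold change of -0.23. DESeq2 gave no adjusted p-value to 2161 of the 13930 genes, and these count as not called in every DESeq2 share given here. Of the 10 genes, 6 had every drug-treated library below every DMSO library (TUBG1, TUBE1, TUBGCP2, TUBGCP3, TUBGCP5 and NEDD1), against 15.1% of all genes tested. The same 6 did so without DMSO replicate 1, against 22.9% of all genes. The median log2 fold change of the 10 was -0.19, beside -0.01 for all genes tested.

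**Figure D2:**
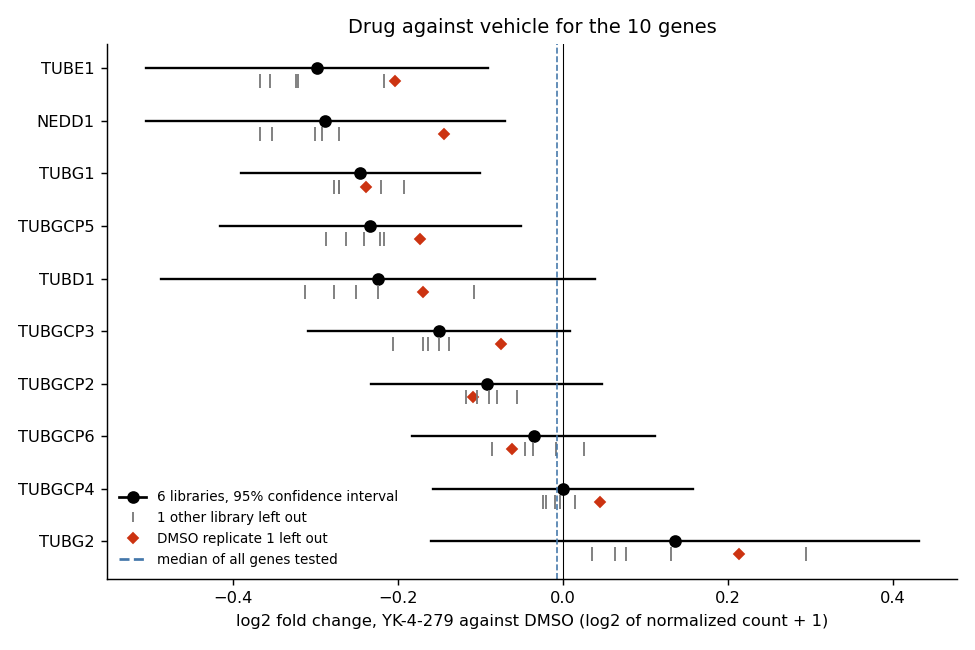
Log2 fold change of each gene, drug against DMSO (horizontal axis, log2 of normalized count + 1), with its 95% confidence interval from limma, and below each the values with 1 library left out. The dashed line is the median of all genes tested (-0.01). The intervals of TUBE1, NEDD1, TUBG1 and TUBGCP5 lie below 0, and leaving out DMSO replicate 1 (red) brings NEDD1 from -0.29 to -0.14 but leaves TUBG1 at -0.24.

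The levels of the genes were compared per length, as normalized counts per kilobase of canonical transcript. With DMSO, TUBG1 was highest, at 1159 ± 46.6 per kilobase (SD, n = 3), and its range lay above that of TUBE1, the next, at 447 ± 53.9. TUBE1, TUBGCP3 (396 ± 37.7) and TUBGCP6 (370 ± 13.7) followed each other with overlapping ranges. TUBGCP2 (334 ± 6.83) lay below TUBGCP6 in every DMSO library, and its range overlapped that of NEDD1 (301 ± 54.3), which was wide because of DMSO replicate 1. The remaining genes lay far lower. TUBGCP5 (150 ± 11.9) and TUBG2 (131 ± 13.7) overlapped, while TUBGCP4 (109 ± 5.99) lay below both and TUBD1 (97.8 ± 7.32) was lowest. Length annotation bears on this order, since the canonical TUBGCP4 transcript is 6812 bases long with a coding length of 2001 bases.

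Drug treatment left most of that order in place. TUBG1 stayed highest on the per kilobase scale, at 978 ± 60.6 (SD, n = 3), and TUBD1 lowest, at 84.2 ± 12. TUBGCP6 (362 ± 28.1) and TUBGCP3 (356 ± 6.34) changed places, as did TUBG2 (145 ± 26.6) and TUBGCP5 (128 ± 4.55), each time with overlapping ranges. Per kilobase, the small complex genes TUBGCP2 and TUBGCP3 together stood at 1.16 ± 0.04 times the sum of TUBGCP4, TUBGCP5 and TUBGCP6 with DMSO and 1.12 ± 0.04 times with the drug (exact permutation test, two-sided, p = 0.40). The γ-tubulin genes together stood at 0.95 ± 0.03 times the sum of the 5 GCP genes with DMSO and 0.89 ± 0.05 times with the drug (exact permutation test, two-sided, p = 0.20). TUBE1 stood at 4.56 ± 0.23 times TUBD1 with DMSO and 4.34 ± 0.34 times with the drug (exact permutation test, two-sided, p = 0.60), and TUBGCP2 at 0.85 ± 0.09 times TUBGCP3 with DMSO and 0.88 ± 0.05 times with the drug (exact permutation test, two-sided, p = 0.70). No ratio had a p adjusted over the 6 ratios below 0.40, and none could have gone below 0.10.

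**Figure D3:**
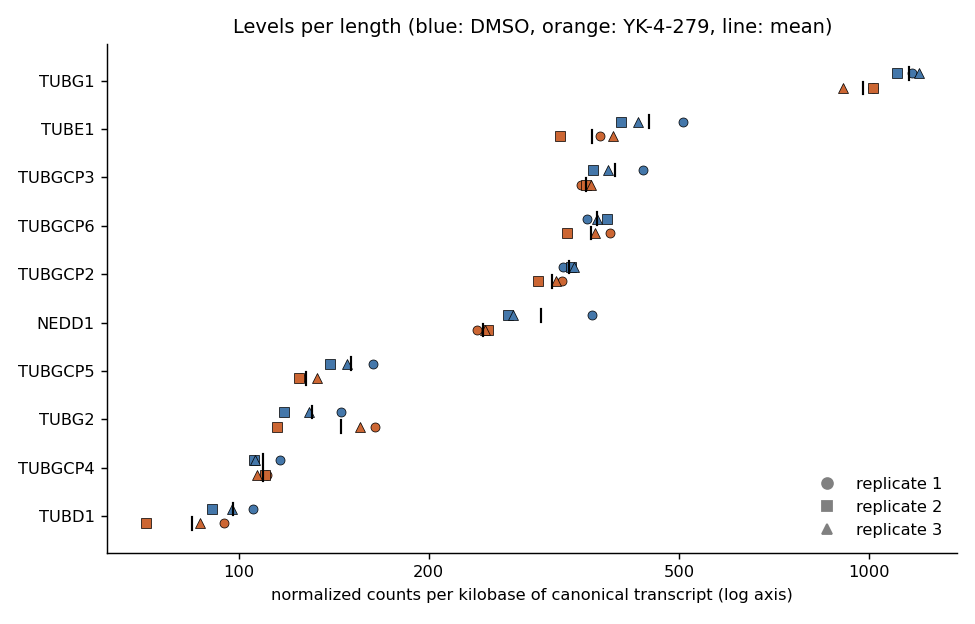
Normalized counts per kilobase of canonical transcript (horizontal log axis) for the 10 genes, ordered by their DMSO mean, with each library as a symbol and group means as lines. TUBG1 lies apart at the top (1159 with DMSO, 978 with the drug), a middle group runs from TUBE1 to NEDD1, and the remaining 4 genes lie at 164 or lower.

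The promoters were searched because the drug is described as acting on ETS factors and because 6 of the genes lay lower together. RefSeq promoter sequences (GRCh38.p14) matched 9 of the 10 genes, all but TUBGCP4, and the 250 bases before each transcription start were read on both strands. Only exact matches were sought, so shorter or variant sites were not counted. A gene counted if any of its windows matched, whereas the shares are per window, and NEDD1 and TUBGCP2 have more than 1 window. The ETS family motif CCGGAAG was found before NEDD1 and TUBGCP6, and in 8.52% of all 35116 promoter windows. The NF-Y box CCAAT was found before TUBG1, TUBG2 and TUBGCP5 and in 32.0% of all windows. The cell cycle homology region TTTGAA was found before none of the 9 genes and in 13.3% of all windows. No window of the 9 genes held more than 1 kind of motif. Below, matches are in capitals, and all 4 sequences run 5′ to 3′ toward the start. The windows are chr17:42609433-42609682 and chr17:42659034-42659283 on the plus strand for TUBG1 and TUBG2, chr12:96907007-96907256 on the plus strand for the first of the windows listed for NEDD1, and chr22:50245024-50245273 on the minus strand for TUBGCP6.

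TUBG1: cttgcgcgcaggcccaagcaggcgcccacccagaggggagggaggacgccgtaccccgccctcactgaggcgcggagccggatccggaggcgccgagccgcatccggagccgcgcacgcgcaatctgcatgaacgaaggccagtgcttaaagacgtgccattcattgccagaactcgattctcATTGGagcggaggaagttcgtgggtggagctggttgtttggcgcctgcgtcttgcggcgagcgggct
TUBG2: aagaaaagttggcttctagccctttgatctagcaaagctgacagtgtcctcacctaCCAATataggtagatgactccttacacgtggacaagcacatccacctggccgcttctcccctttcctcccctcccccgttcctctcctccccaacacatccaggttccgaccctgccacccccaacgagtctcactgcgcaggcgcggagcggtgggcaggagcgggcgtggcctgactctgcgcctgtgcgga
NEDD1: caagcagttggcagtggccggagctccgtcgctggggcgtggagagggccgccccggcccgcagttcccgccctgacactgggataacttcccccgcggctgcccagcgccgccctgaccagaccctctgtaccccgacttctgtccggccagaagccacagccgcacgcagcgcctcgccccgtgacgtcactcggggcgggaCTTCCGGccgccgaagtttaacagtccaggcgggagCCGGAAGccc
TUBGCP6: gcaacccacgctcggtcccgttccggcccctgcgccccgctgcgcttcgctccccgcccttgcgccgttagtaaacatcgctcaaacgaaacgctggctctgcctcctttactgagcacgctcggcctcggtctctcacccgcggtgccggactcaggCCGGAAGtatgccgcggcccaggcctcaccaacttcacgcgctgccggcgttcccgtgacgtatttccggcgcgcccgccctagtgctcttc

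NEDD1 and TUBGCP6, which hold the exact ETS motif searched, had log2 fold changes of -0.29 and -0.04. TUBG1, TUBG2 and TUBGCP5, which each hold a CCAAT box, had -0.25, 0.14 and -0.23. TUBE1, TUBD1, TUBGCP3 and TUBGCP2, which hold none of the motifs searched, had -0.30, -0.22, -0.15 and -0.09. A match is a description of these letters and was not tested as a binding site.

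The proteins that work with the ring were taken from lists by function. Of 10 γ-tubulin partners and anchors, all tested, 0 passed the test, 7 were below 0 and the median log2 fold change was -0.10. CDK5RAP2, a centrosomal protein that binds and activates the ring and the member with the highest mean, went from 4226 ± 88.7 normalized counts (SD, n = 3) under DMSO to 3697 ± 101 (SD, n = 3) under the drug, at a log2 fold change of -0.19 (limma adjusted p = 0.0728). MZT1, a small protein that binds the GCPs, was picked out after its values were seen, with 2152, 1873 and 1869 normalized counts with DMSO and 1576, 1739 and 1571 with the drug, a log2 fold change of -0.27 (limma adjusted p = 0.0628). Without DMSO replicate 1 it was -0.20 and passed (limma adjusted p = 0.00317). Of the 8 augmin subunits, which recruit the ring to existing microtubules so that new ones branch off, 0 passed and the median was -0.15. HAUS6, the most abundant by mean count, was at -0.23 on the log2 scale (limma adjusted p = 0.168), and at -0.12 without DMSO replicate 1 (limma adjusted p = 0.0985). Without DMSO replicate 2 it was at -0.32 and passed (limma adjusted p = 0.0378). Of 9 branching and minus end factors 8 were tested and 0 passed, with a median of -0.05, and RAN, whose GTP-bound form promotes spindle assembly and whose mean was highest, was at -0.07 on the log2 scale (limma adjusted p = 0.566), and at -0.01 without DMSO replicate 1 (limma adjusted p = 0.873). At an unadjusted p under 0.05 these 3 lists held 5, 2 and 1 genes, against 18.7% of all genes. In each, edgeR called 0, against 3.34% of all genes, while DESeq2 called 1, 0 and 1, against 4.56%. Without DMSO replicate 1 they held 3, 1 and 1 calls, where 13.1% of all genes were called. The 3 were MZT1 and CDK5RAP2, lower (limma adjusted p = 0.0017 for CDK5RAP2), and PDE4DIP, a centrosome and Golgi protein named after its values were seen, higher at 0.19 (limma adjusted p = 0.0013). With all 6 libraries PDE4DIP was at 0.14 (limma adjusted p = 0.268), and without DMSO replicate 3 at 0.11 (limma adjusted p = 0.498). Without DMSO replicate 2 the lists held 1 call each, where 4.85% of all genes were called.

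Among 8 centrosome kinases, 1 passed the test, lower, where 2.15% of all genes were called lower. CDK1, the kinase that drives entry into mitosis, had 3496, 2996 and 3189 normalized counts with DMSO against 2141, 2382 and 2531 with the drug, and fell by 0.46 on the log2 scale (limma adjusted p = 0.00741). Without drug-treated replicates 1 or 2, where 0.136% and 0.165% of all genes were called, no kinase passed and CDK1 was at -0.39 and -0.47. AURKA, which had the highest mean of the kinases, was at -0.06 (limma adjusted p = 0.633), and between -0.10 without drug-treated replicate 2 and -0.03 without drug-treated replicate 1. Of 22 genes of centriole assembly and partners of δ- and ε-tubulin, 4 passed the test, all lower, against the same 2.15%, and the median was -0.19. CEP152, which recruits the kinase PLK4 to the mother centriole, averaged 1332 ± 131 normalized counts with DMSO against 960 ± 24.0 with the drug (SD, n = 3 per group), and fell by 0.47 on the log2 scale (limma adjusted p = 0.00741). CCP110, which caps centrioles, and STIL, which builds the cartwheel of the new centriole, fell by 0.37 and 0.34 (limma adjusted p = 0.0320 and 0.0244), and CEP97, with the highest mean of that list, was at -0.18 (limma adjusted p = 0.190), and at -0.11 without DMSO replicate 1. POC1A, named to complete the count, was the fourth that passed. TEDC1 and TEDC2, the partners of δ- and ε-tubulin named after their values were seen, were at -0.09 and -0.20 (limma adjusted p = 0.786 and 0.361). DMSO replicate 1 was the lowest DMSO library for both, and without it they were at -0.32 and -0.34 and passed (limma adjusted p = 3.4e-04 and 9.0e-04). TEDC1 was at 0.05 without DMSO replicate 2 and TEDC2 at -0.11 without DMSO replicate 3. The count of 4 in the centriole list was 9 without DMSO replicate 1, where 8.46% of all genes were called lower, 2 without DMSO replicate 3, where 1.02% were, and 0 without drug-treated replicates 1, 2 or 3, where 0.0287%, 0.0503% and 0.129% were. In those last 3 fits CEP152 was at -0.46, -0.49 and -0.45.

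**Figure D4:**
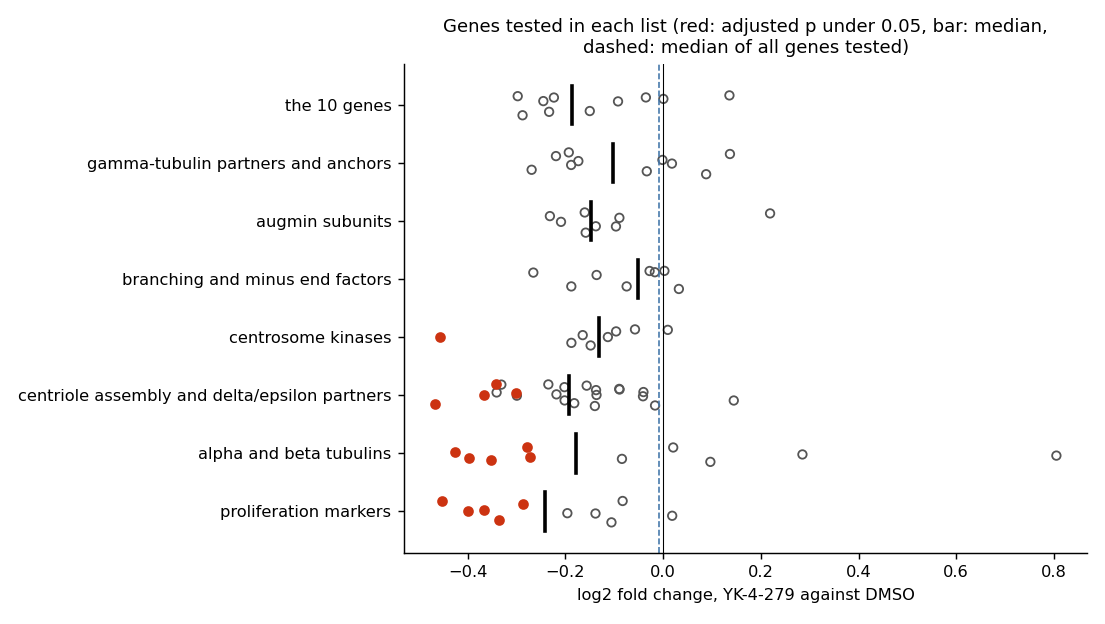
Log2 fold change, drug against DMSO (horizontal axis), of every gene tested in each list, with red points for a limma adjusted p under 0.05, black bars for list medians and a dashed line for the median of all genes tested (-0.01). The 10 genes (median -0.19) hold no red point, against 4 among centriole assembly genes and 5 each among α/β-tubulins and proliferation markers.

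The α/β-tubulins, from which microtubules are built, and the proliferation markers are given for comparison. Of 12 α/β-tubulin genes 10 were tested and 5 passed, all lower, where 2.15% of all genes were called lower, with a median of -0.18. Of the 10, 4 were above 0, and TUBB3 and TUBB2A, named after their values were seen, were at 0.80 and 0.29 (limma adjusted p = 0.259 and 0.204). TUBB3 had a mean of only 23.6 normalized counts, and was at 0.42 without DMSO replicate 2 and at 1.08 without DMSO replicate 3. TUBB, the most abundant, averaged 29462 ± 1107 normalized counts with DMSO against 22380 ± 709 with the drug (SD, n = 3 per group), and fell by 0.40 on the log2 scale (limma adjusted p = 0.00329), and TUBA1B and TUBB4B fell by 0.43 and 0.35 (limma adjusted p = 0.00329 and 0.00705). α- and β-Tubulin genes have near-identical copies, so that their counts are uncertain where reads could be split. Leaving out a library gave 0 to 5 calls in this list, with 3 without DMSO replicate 2, 3 without drug-treated replicate 2, 2 without drug-treated replicate 3 and 0 without drug-treated replicate 1. The shares of all genes called lower in these 4 fits were 2.96%, 0.0503%, 0.129% and 0.0287%. Without drug-treated replicate 1 TUBB was at -0.37. Of 10 proliferation markers 5 passed, all lower, against the same 2.15%, with a median of -0.24, and their summed normalized counts were 76977 to 85032 with DMSO and 63065 to 67037 with the drug. TOP2A, with the highest mean, and MKI67 and PCNA fell by 0.45, 0.40 and 0.37 on the log2 scale (limma adjusted p = 0.00626, 0.00724 and 0.00741). The count of 5 was 7 without DMSO replicate 1, where 8.46% of all genes were called lower. It was 0, 0 and 1 without drug-treated replicates 1, 2 and 3, where 0.0287%, 0.0503% and 0.129% were, and TOP2A was then at -0.42, -0.47 and -0.47. The summed counts of the 10 genes of interest were 10495 to 11538 with DMSO and 9503 to 10151 with the drug, so these sums did not overlap either, and the part of proliferation in the levels of the 10 genes was not tested. In bulk RNA, fewer cells of a kind and less RNA per cell cannot be told apart.

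Patterns like that of TUBG1 over the 6 libraries were sought among 10698 other genes with a mean of at least 100, by the root mean square difference of centered log2 values. The closest was KIF24, a kinesin that acts at centrioles, at 0.027 on the log2 scale, with 376, 349 and 387 normalized counts with DMSO and 312, 324 and 296 with the drug. PXMP4, a peroxisomal membrane protein, and PHC1, a Polycomb group protein, followed at 0.031 and 0.040. Their own log2 fold changes were -0.25 for KIF24, -0.25 for PXMP4 and -0.19 for PHC1, and none of them passed the test (limma adjusted p = 0.153, 0.124 and 0.168). Because these genes were chosen for their likeness to TUBG1, fold changes near its own follow from the choice. How close a match arises by chance among so many genes was not tested.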

How the data were processed

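RNA was sequenced by poly(A) selection and paired-end reads in 3 DMSO and 3 YK-4-279 libraries of Rh30 cells. The study's methods give BBDuk for trimming and STAR 2.7.9a for alignment (hg38) and gene counts, and the authors used DESeq2, listed as version 1.44.0 in the submitters' processing notes. The gene annotation and the strand setting are not given in the sources used here. The deposited signal is reads divided by a size factor of each library, and each value is a whole multiple of the value of 1 read, for 100% of values (tolerance 1e-06). The library totals of 16724650 to 24677433 reads set the precision. One row of 35269 had no gene name, held at most 6 reads in any library and was left out.

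The main test was limma 3.58.1 in R 4.3.3 (lmFit, eBayes with trend) on log2(normalized count + 1). It covered 13930 genes whose mean reached 10, two-sided, with Benjamini-Hochberg adjustment over all of them, all 6 libraries and no replicate block. Ratios within libraries were tested with exact permutation tests over the 20 assignments of libraries. The alternatives, edgeR 4.0.16 and DESeq2 1.42.0 on recovered reads among them, are those of the closing section. Lengths came from canonical transcripts of GENCODE on hg38, and the code was tested on simulated reads. The 10 genes and the lists were chosen with earlier results of these data known. Genes named were the 10, and in each list the gene with the highest mean and up to 3 called genes with the largest change. Other genes, such as MZT1, PDE4DIP, POC1A, TEDC1 and TEDC2, were named after their values were seen.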

Additional observations from a re-analysis of the deposited data

How the results depend on the processing

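Of the 17 alternatives, 4 called some of the 10 genes. DESeq2 on recovered reads and removal of the trend on GC content and length called 1 each (TUBG1, at -0.23 and -0.28, where 4.56% and 12.1% of all genes were called), and the fits that left out 1 library called 0 to 3, namely 2 without DMSO replicate 1 (TUBG1 and TUBE1, where 13.1% of all genes were called) and 3 without DMSO replicate 2 (TUBG1, TUBE1 and NEDD1, where 4.85% were). The number of genes called among all tested was 475, and 277 with quantile normalization (132 higher, 145 lower, against 176 and 299), 33 with eBayes without trend (30 higher, 3 lower), 180 with a replicate block (79 higher, 101 lower) and 1652 after a trend on GC content and length was taken out (569 higher, 1083 lower, of 13705 genes). It went from 19 (without drug-treated replicate 1) to 1823 (without DMSO replicate 1) across the fits without 1 library, with 23, 46, 242 and 676 without drug-treated replicates 2 and 3 and DMSO replicates 3 and 2. DESeq2 called 635. Samples with the same replicate number did not deviate together (correlations -0.098, -0.027 and -0.027). These values do not tell whether the samples were prepared as pairs. With the replicate block, 0 of the 10 genes were called, as without it, and its count for all genes is the 180 above. Without the trend in eBayes, 0 genes were called among the centrosome kinases, centriole genes, α/β-tubulins and proliferation markers, where 1, 4, 5 and 5 were called with it. Quantile normalization and the replicate block each gave 1 centriole call and 3 α/β-tubulin calls. Taking out the trend on GC and length gave these 4 lists 2, 7, 5 and 7 calls, all lower, and the lineage markers 2, where 7.9% of the 13705 genes in that fit were called lower. The cause of these changes was not tested.

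The log2 fold change of TUBGCP6 was 0.015 with quantile normalization and went from -0.086 to 0.026 without 1 library, above 0 without drug-treated replicate 2. That of TUBGCP4 went from -0.023 to 0.045 in those fits, and was below 0 in 4 of them (-0.023, -0.021, -0.0094 and -0.0040). The other 8 genes kept their sign in all 17. The number of genes with every drug-treated library below every DMSO library, 6 of 10, was 6 or 7 without 1 library, an alternative chosen after seeing the data, as were the values of list genes without 1 library. The difference in the TUBG1 share, -3.01 percentage points, went from -4.50 to -2.09 without 1 library and was -2.79 per kilobase. Depth limits TUBG2 and TUBD1 most, which had 177 to 293 normalized counts per library.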
